A study of Mus musculus with 12 samples.

Results

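Complex I, NADH:ubiquinone oxidoreductase, was examined in the gastrocnemius muscle of mice that had received fecal microbiota from exercise-trained or sedentary donors. Its members were taken as all rows of the deposited array table whose single annotated gene symbol begins with Nduf. They were 48 of 28944 transcript clusters and stood for 43 genes, of which 6 encode core subunits, 28 accessory subunits and 7 assembly factors of the Ndufaf series. The remaining 2, Ndufa4 and Ndufa4l2, bear the name but are not counted as complex I subunits here, since Ndufa4 is known as a subunit of cytochrome c oxidase.

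The RT group was 6 recipients of feces from trained donors and the RS group was 6 recipients of feces from sedentary donors. All 12 were male germ-free ICR mice, strain Tsl;ICR[GF], 11 weeks of age, that were gavaged under germ-free conditions and then kept under specific-pathogen-free conditions on a high-fat diet. Muscle was taken 1 week after transplantation, and each mouse had 1 array, hybridized with material made from 250 ng of total RNA. Mice of a group were housed together and received the same fecal sample, so that donor training, fecal sample and cage cannot be told apart, and the p-values measure only the spread between these mice. In a bulk sample, fewer cells of a type and less RNA per cell cannot be told apart either.

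Complex I is the entry point of NADH into the respiratory chain. It oxidizes NADH, passes the electrons along a row of iron-sulfur clusters to ubiquinone and pumps protons across the inner mitochondrial membrane. The flavin and the clusters sit in a peripheral arm that reaches into the matrix, and the proton channels sit in the membrane arm. Core subunits carry out catalysis and are shared with bacteria, accessory subunits surround them, and assembly factors bind intermediates of the complex and leave before it is complete. Some core subunits are encoded by mitochondrial DNA, and the Nduf genes are the nuclear part. Skeletal muscle has a high content of the complex.

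A transcript cluster was called where the p of limma was below 0.05 and its p adjusted by Benjamini-Hochberg over all 28944 was below 0.1. Values are log2 signals, differences are RT minus RS on the log2 scale, and each gene is represented by its brightest row. By this rule 3445 transcript clusters, 11.9%, were called higher in RT and 3764, 13%, lower. Arrays RS-4 and RS-6 stood apart, with a standard deviation of log2 signal over all rows of 1.975 and 1.989, against 2.058 to 2.155 on the other 10 arrays. Fast-twitch muscle fiber genes were bright in both groups. The mean of 10 of them lay between 12.22 and 12.33 in RT and between 12.07 and 12.33 in RS, and none of the 10 was called. They mark skeletal muscle and cannot tell the gastrocnemius from other muscles. Of the marker lists of other cells, 9 of 9 macrophage genes, 7 of 9 fibroblast and matrix genes, 6 of 8 endothelial genes and 6 of 10 adipocyte genes were called higher in RT, and 1 adipocyte gene, Cidea, was called lower. Of 3 Schwann cell genes, Pmp22 was called higher and Sox10 lower, and the erythrocyte gene Alas2 was called higher. The mean of the macrophage list was 5.72 to 6.17 in RT and 4.87 to 5.50 in RS, and that of the fibroblast and matrix list was 8.19 to 8.64 in RT and 7.15 to 8.36 in RS. Slow-twitch fiber genes, which mark fibers rich in mitochondria, averaged 7.05 to 9.35 in RT and 8.02 to 9.72 in RS, with 0 of 10 called. Their changes were negative in 9 and positive in 1, with a median of -0.35. The standard errors of 0.20 to 0.41 were wide, so the lack of calls does not show an unchanged fiber type. The part of these lists in the results on complex I was not tested.

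Complex I transcripts did not change in 1 direction. Of the 34 structural subunits measured, 3 were called higher in RT, which were Ndufs8, Ndufb9 and Ndufa13, and 2 were called lower, which were Ndufa12 and Ndufb2. These are 8.82% and 5.88% of the subunits, both below the shares over the whole table. The median change of the 34 was 0.07, against -0.01 over all transcript clusters and 0.11 over those with a mean signal of at least 8, of which 20.4% were called higher and 9.1% lower. Positive differences were found in 21 subunits and negative ones in 13. Of the 7 Ndufaf assembly factors, 0 were called higher and 1, Ndufaf2, was called lower, which is 14.3%. Their mean signals were 5.25 to 6.60. Of all transcript clusters from 5 to under 6, 17.6% were called higher and 11.5% lower. From 6 to under 7 these shares were 28.7% and 6.16%. Ndufaf3 and Ndufaf7 were higher only at an unadjusted p under 0.05 by limma. Without a correction for multiple tests, 12 of the 43 genes had p under 0.05 by limma, 7 of them higher and 5 lower in RT. The share of all transcript clusters at this threshold was not counted, so the 12 cannot be read as an excess. Under the stricter rule for calls, 11.9% of the whole table were higher and 13% lower.

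**Figure D1:**
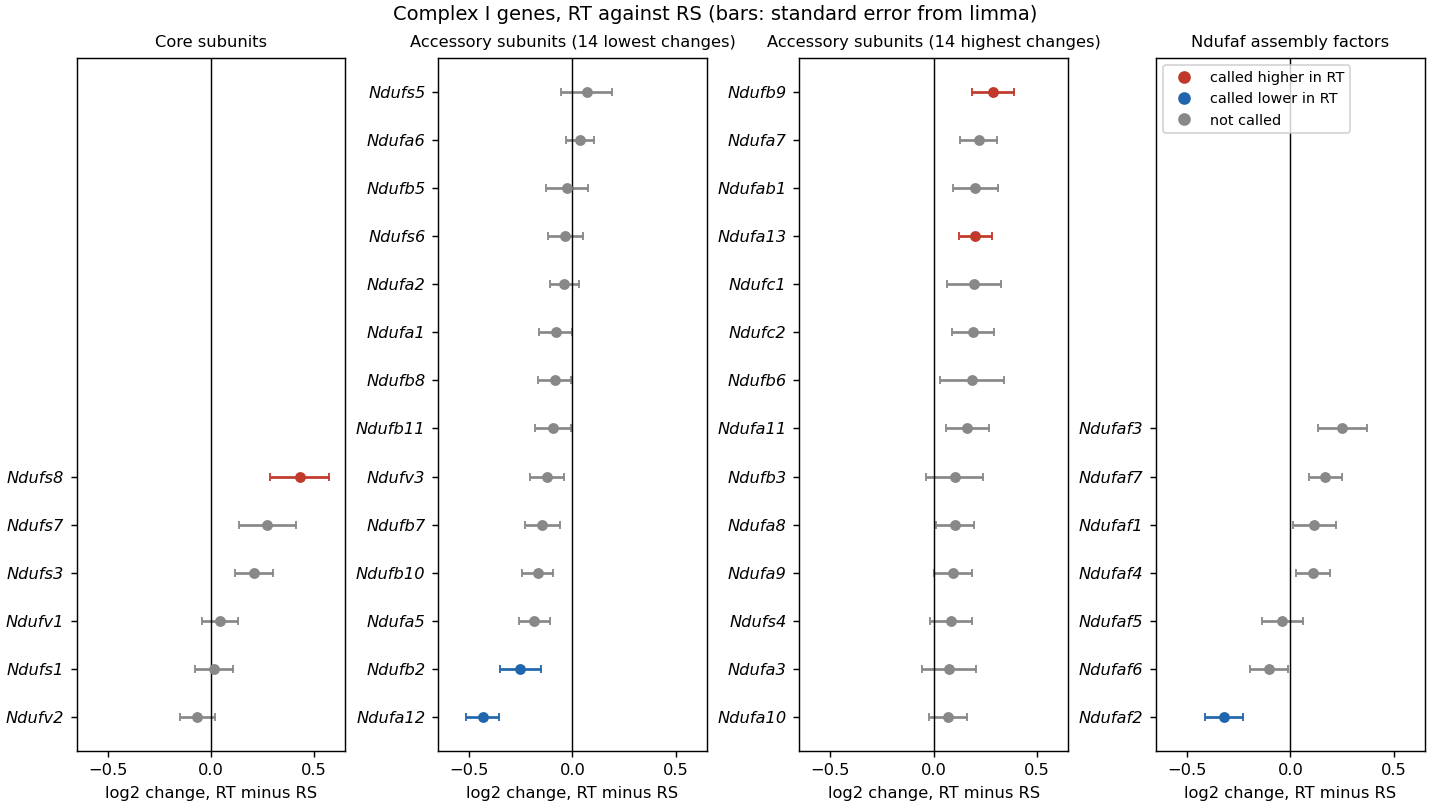
Log2 change (RT minus RS, horizontal axis) of each complex I gene, with core subunits, accessory subunits in 2 panels and Ndufaf assembly factors apart. Points are gene values, bars are standard errors from limma, and color marks the call, with 3 subunits called higher, 2 called lower and Ndufaf2 called lower among the assembly factors.

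The clearest differences were in a related pair of genes, Ndufa12 and Ndufaf2. Ndufa12 is an accessory subunit of the matrix arm. Ndufaf2 is its paralog, once named Ndufa12l, and is an assembly factor that occupies the place of Ndufa12 in assembly intermediates before Ndufa12 comes in. Both were lower in RT. The promoter stretches of this pair are shown because they carry the largest decreases among the accessory subunits and the assembly factors, and that of Ndufs8 because it had the largest increase. Each is the 250 bases before the start site from RefSeq on GRCm38.p6, 5′ to 3′ on the gene's strand, with CCAAT motifs in capitals on either strand. Ndufa12 lies at chr10:94198785-94199034 on the plus strand, Ndufaf2 at chr13:108158626-108158875 on the minus strand and Ndufs8 at chr19:3912775-3913024 on the minus strand.
Ndufa12: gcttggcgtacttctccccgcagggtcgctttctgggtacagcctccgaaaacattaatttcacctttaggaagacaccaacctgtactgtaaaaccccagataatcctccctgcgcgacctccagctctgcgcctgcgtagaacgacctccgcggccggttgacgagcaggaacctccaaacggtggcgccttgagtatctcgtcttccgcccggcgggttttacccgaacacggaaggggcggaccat
Ndufaf2: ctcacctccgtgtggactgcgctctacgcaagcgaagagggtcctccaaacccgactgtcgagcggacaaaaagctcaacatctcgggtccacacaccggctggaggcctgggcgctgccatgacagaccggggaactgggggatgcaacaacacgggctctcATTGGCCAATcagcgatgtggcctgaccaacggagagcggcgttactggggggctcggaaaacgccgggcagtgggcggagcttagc
Ndufs8: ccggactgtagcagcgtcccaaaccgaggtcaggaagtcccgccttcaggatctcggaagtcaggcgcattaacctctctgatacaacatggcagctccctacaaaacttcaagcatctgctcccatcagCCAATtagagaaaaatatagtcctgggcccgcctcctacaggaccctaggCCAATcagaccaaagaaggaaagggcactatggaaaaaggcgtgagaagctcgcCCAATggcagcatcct

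The motifs searched were GCGCA and GCGC with 1 base between them (the NRF1 motif), CCGGAAG (the ETS and GABP motif), AAGATGG (the YY1 motif) and CCAAT, on both strands of the window of 300 bases that adds the first 50 transcribed bases. The NRF1 letters were found in 8 of the 38 member promoters present in the table, 21.1%, against 4.78% of 27025 promoters of all genes. The YY1 letters were found in 7, 18.4% against 6.48%, the ETS letters in 5, 13.2% against 9.12%, and CCAAT in 12, 31.6% against 37.9%. Of the 6 called members, Ndufb9 was not among the 38, and the other 5 held neither the NRF1 nor the YY1 letters. Ndufa12 held none of the 4 motifs. Ndufaf2 held 2 CCAAT motifs on opposite strands that share no base, Ndufs8 held 3 CCAAT motifs and the ETS letters among its transcribed bases, and Ndufb2 and Ndufa13 held 1 CCAAT motif each. These matches describe letters in a window and not binding.

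Ndufa12 had log2 signals of 8.10, 8.09, 8.24, 8.14, 8.25 and 8.33 in RT-1 to RT-6, against 8.79, 8.57, 8.70, 8.52, 8.66 and 8.52 in RS-1 to RS-6. All 6 RT mice were below all 6 RS mice, which held for 3.1% of all transcript clusters (the opposite order held for 2.69%) and for no other Nduf gene. The means were 8.19 ± 0.10 in RT and 8.63 ± 0.11 in RS (SD, n = 6 each). The difference was -0.44 (SE 0.08, 95% confidence interval -0.60 to -0.27), or 0.74 of the RS signal, with an adjusted p of 0.00292 by limma and p = 0.00216 in a two-sided exact permutation test, the smallest that 924 splits allow. It was called in all 24 alternative settings, with changes between -0.57 and -0.36. Of transcript clusters with a mean signal from 8 to under 9, 7.54% were called lower and 22.1% higher. RefSeq lists a pseudogene of it, Ndufa12-ps, and whether the array's probes also bind its transcript was not tested.

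Ndufaf2 had log2 signals of 5.02, 5.12, 5.10, 4.97, 5.22 and 5.13 in RT-1 to RT-6, against 5.33, 5.22, 5.53, 5.68, 5.21 and 5.52 in RS-1 to RS-6. Of the RT mice, 5 lay below all RS mice, and RT-5 lay at the level of RS-2 and RS-5. The means were 5.09 ± 0.09 in RT and 5.42 ± 0.19 in RS, a difference of -0.32 (SE 0.09, interval -0.52 to -0.13), with an adjusted p of 0.0286 by limma and p = 0.00649 in the exact permutation test. Among transcript clusters with a mean signal from 5 to under 6, 11.5% were called lower. Leaving out any 1 mouse kept the call. It was lost without RS-4 and RS-6 together, where the change was -0.23 with an adjusted p of 0.123.

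Ndufb2, an accessory subunit of the membrane arm, was the other subunit called lower. Its signals were 7.62, 7.72, 7.57, 7.68, 7.61 and 7.80 in RT-1 to RT-6, against 8.06, 8.05, 8.14, 7.70, 7.99 and 7.57 in RS-1 to RS-6. Of the RS mice, 4 lay above all RT mice, while RS-4 and RS-6 lay within the RT range. The difference was -0.25 (SE 0.10, interval -0.46 to -0.04), near the threshold with an adjusted p of 0.0926 and p = 0.0433 in the exact permutation test. Leaving out RS-1, RS-2, RS-3, RS-5 or any RT mouse ended the call, with an adjusted p of up to 0.166. Without RS-4 and RS-6 the change was -0.39 and was called.

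Ndufs8 had the largest increase. It is a core subunit that holds iron-sulfur clusters on the electron path towards ubiquinone. Its signals were 8.62, 8.42, 8.38, 8.22, 8.35 and 8.50 in RT-1 to RT-6, against 8.36, 8.18, 8.36, 7.45, 7.95 and 7.61 in RS-1 to RS-6. Of the RT mice, 4 lay above all RS mice, and the lowest values of the RS mice were those of RS-4 and RS-6. The means were 8.42 ± 0.14 in RT and 7.99 ± 0.39 in RS, a difference of 0.43 (SE 0.14, interval 0.13 to 0.73), or a 1.35-fold signal, with an adjusted p of 0.0529 by limma and p = 0.0195 in the exact permutation test. The call was lost on leaving out RS-4, RS-6, RT-1 or RT-6, and without RS-4 and RS-6 together the change was 0.20 with an adjusted p of 0.241.

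Ndufb9 and Ndufa13 were the accessory subunits called higher. Ndufb9, a membrane arm subunit of the LYR family, had signals of 11.09, 10.92, 10.97, 10.81, 10.78 and 10.98 in RT-1 to RT-6, against 10.85, 10.85, 10.72, 10.42, 10.67 and 10.32 in RS-1 to RS-6. The difference was 0.29 (SE 0.10, interval 0.07 to 0.50), with an adjusted p of 0.0639 and p = 0.0152 in the exact permutation test. Again the lowest arrays were RS-4 and RS-6, and without both the change was 0.15 with an adjusted p of 0.281. Leaving out RS-4, RS-6, RT-1, RT-2, RT-3 or RT-6 alone also ended the call. Ndufa13, a membrane arm subunit at the junction with the matrix arm that is also known as a cell death regulator, had signals of 7.72, 7.85, 7.67, 7.66, 7.82 and 7.75 in RT-1 to RT-6, against 7.54, 7.67, 7.67, 7.35, 7.45 and 7.58 in RS-1 to RS-6. The difference was 0.20 (SE 0.08, interval 0.04 to 0.37), with an adjusted p of 0.0885 and p = 0.013 in the exact permutation test. Without RS-4 and RS-6 the change was 0.16 with an adjusted p of 0.223. It was called in 9 of 24 alternatives and lost on leaving out any of RS-4, RS-5, RS-6, RT-1, RT-2, RT-3, RT-5 and RT-6.

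**Figure D2:**
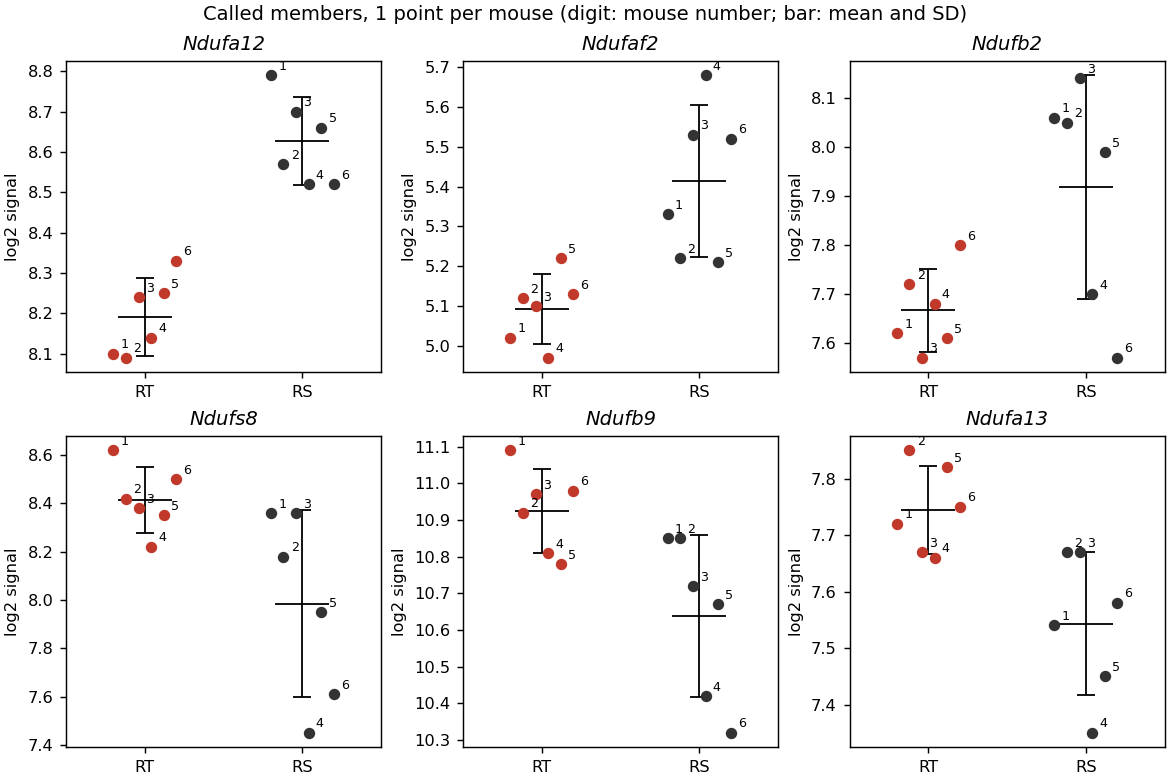
Log2 signal (vertical axis, separate range in each panel) of the 6 called genes, with 1 point per mouse numbered as in the labels and the mean and SD as bars, RT left of RS. Ndufa12 shows no overlap between groups, and in Ndufs8 and Ndufb9 the lowest points are RS-4 and RS-6.

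The other 5 core subunits measured were not called. Ndufs1, which carries iron-sulfur clusters in the NADH-oxidizing part, differed by 0.02 (adjusted p = 0.917), and Ndufv1, which binds NADH and the flavin, by 0.05 (adjusted p = 0.748), with all adjusted p-values from limma. Ndufs7, which holds the cluster next to ubiquinone, differed by 0.27 (adjusted p = 0.183). Ndufs3, a subunit of the part that meets ubiquinone, differed by 0.21 (adjusted p = 0.124) and by 0.17 on its second row. Ndufv2, which carries an iron-sulfur cluster beside Ndufv1, was the brightest core row and the one with a negative difference, -0.07 (adjusted p = 0.612). Its signals were 10.01, 9.93, 9.86, 9.93, 9.91 and 9.99 in RT-1 to RT-6, against 10.18, 10.07, 10.08, 9.78, 10.12 and 9.80 in RS-1 to RS-6. Of the RS mice, 4 lay above all RT mice, and RS-4 and RS-6 lay below all of them.

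Of the 28 accessory subunits, 24 were not called, with 14 positive and 10 negative differences between -0.19 and 0.22. Closest to the threshold were Ndufa5, a matrix arm subunit, with a difference of -0.19 (adjusted p = 0.1, exact permutation p = 0.00649), and Ndufa7, also of the matrix arm, with 0.22 (adjusted p = 0.101). For Ndufa5, 4 RT mice lay below all RS mice, and without RS-4 and RS-6 the change was -0.23 and was called. Ndufb10, of the membrane arm, differed by -0.17 (adjusted p = 0.125). By position, 1 of 15 matrix arm subunits was called higher and 1 lower, 6.67% each, with a median change of 0.04. Of 18 membrane arm subunits, 2 were called higher, 11.1%, and 1 lower, 5.56%, with a median of 0.07. Ndufab1 was assigned to both arms and is in neither count. Of all transcript clusters, 11.9% were called higher and 13% lower. At a mean signal of at least 8 these shares were 20.4% and 9.1%. No share of either arm was above that of all transcript clusters, and the difference between the arms was not tested. Both rows of Ndufa11 (0.16 and 0.20), Ndufc1 (0.20 and 0.17) and Ndufab1, the mitochondrial acyl carrier protein (0.20 and 0.17), had the same sign. The rows of Ndufb11 differed in sign, at -0.09 and 0.09, and neither was called.

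The other 6 assembly factors were not called, and 4 of the 7 had positive differences, with a median of 0.11. Ndufaf1, which works with Ecsit and Acad9 on the membrane arm, differed by 0.12 (adjusted p = 0.462). Ndufaf3 and Ndufaf4, partners in early assembly of the part that meets ubiquinone, differed by 0.25 (adjusted p = 0.153) and 0.11 (adjusted p = 0.361). Ndufaf3 had 6.50, 6.58, 6.50, 6.09, 6.36 and 6.37 in RT-1 to RT-6, against 6.42, 6.10, 6.53, 5.89, 5.91 and 6.04 in RS-1 to RS-6. Ndufaf4, the brightest of the class, had 6.70, 6.70, 6.65, 6.69, 6.56 and 6.61 in RT-1 to RT-6, against 6.66, 6.55, 6.67, 6.26, 6.60 and 6.51 in RS-1 to RS-6. The groups overlapped in both genes, with RS-4 the lowest array. Ndufaf7, a methyltransferase, differed by 0.17 (adjusted p = 0.142), and Ndufaf5, which hydroxylates NDUFS7 in human cells, by -0.04 (adjusted p = 0.82). Ndufaf6 differed by -0.10 (adjusted p = 0.448). Of 12 assembly genes that do not bear the Nduf name, Foxred1 alone was called, higher by 0.27 (adjusted p = 0.0545), and the median was 0.15. This is 8.33% called higher, against 11.9% over the whole table. Mean signals of the 12 were 3.43 to 7.48. Of all transcript clusters from 5 to under 6, 17.6% were called higher. From 6 to under 7 the share was 28.7%, and from 7 to under 8 it was 28%. None of the 12 was called after loess, nor when RS-4 and RS-6 were left out. With median centering 5 of the 12 were called higher, at a background share of 20.3%. Outside complex I, Ndufa4 differed by 0.13 (adjusted p = 0.348) and Ndufa4l2, a hypoxia-induced relative of it, by 0.27 (adjusted p = 0.181).

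The mean over the subunits overlapped between the groups. Over the 34 structural subunits it was 9.008, 9.002, 8.958, 8.870, 8.900 and 8.945 in RT-1 to RT-6, against 9.071, 8.962, 9.050, 8.718, 8.955 and 8.661 in RS-1 to RS-6. The RT mice lay inside the range of the RS mice, and RS-4 and RS-6 were the lowest. The group means were 8.95 ± 0.06 in RT and 8.90 ± 0.17 in RS, a difference of 0.04, and without RS-4 and RS-6 it was -0.06. The lowest of the 12 arrays was RS-4 or RS-6 for 27 of the 34 subunits, an RT mouse for 7, and another RS mouse for 0. For core subunits the difference of the means was 0.15, and 0.01 without the 2 arrays. For accessory subunits it was 0.02, and -0.08 without them. For Ndufaf factors it was 0.03, and -0.02 without them. The SD among RT mice was below that among RS mice in 28 of 34 subunits, 82.4%, against 69.8% of all transcript clusters, and with RS-4 and RS-6 left out in 16 of 34, 47.1% against 54.1%. Within groups, the median correlation between pairs of subunits was 0.60 over the 12 mice, and that between pairs of Ndufaf factors 0.31, where all genes share the arrays and their normalization.

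**Figure D3:**
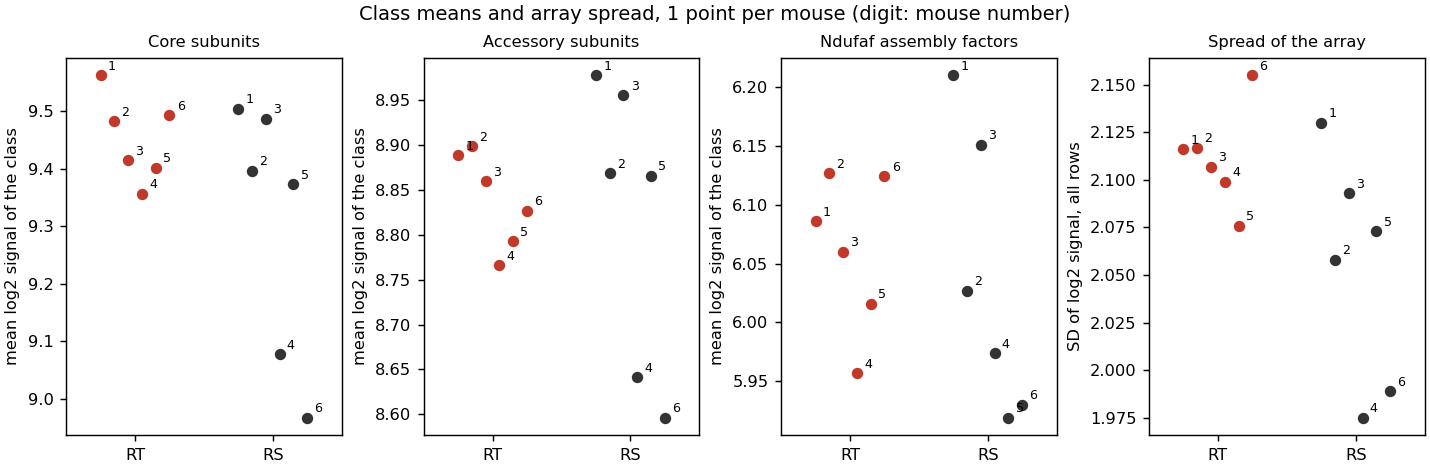
Mean log2 signal of core subunits, accessory subunits and Ndufaf factors, and the SD of log2 signal over all rows of the array, 1 point per mouse, RT left of RS. RS-4 and RS-6 are the lowest points for core subunits, accessory subunits and the array SD (1.975 and 1.989).

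The direction of the class as a whole depended on how the arrays were scaled. Cyclic loess normalization of the deposited values, which levels intensity-dependent differences between arrays, left 2 subunits called higher and 9 lower, with a median change of -0.06, at background shares of 9.57% and 9.73%. Over transcript clusters with a mean signal of at least 8 the median then was -0.01, with 11.6% called higher and 15.6% lower. Ndufb7, Ndufb8, Ndufb10, Ndufb11, Ndufv2, Ndufv3 and Ndufa5 joined Ndufa12 and Ndufb2 as lower in RT. Quantile normalization gave 2 higher and 6 lower with a median of -0.01, at background shares of 9.62% and 9.53%. When all arrays were shifted to a common median, 5 subunits were called higher and 1 lower with a median of 0.14, at background shares of 20.3% and 8.34%. Without RS-4 and RS-6, 0 subunits were called higher and 3 lower, which were Ndufa12, Ndufb2 and Ndufa5, at background shares of 5.7% and 6.19% (4.55% and 8.88% at a signal of at least 8). With the array SD as a covariate, 0 were called higher and 2 lower, which were Ndufa12 and Ndufb2, at 2.53% and 3.07%.

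Set against the mean of the 34 subunits on the same array, 4 subunits were called. On this scale, with 5.74% of all transcript clusters called higher and 6.07% lower, Ndufs8 differed by 0.39 (adjusted p = 0.0491) and Ndufb9 by 0.24 (adjusted p = 0.0997), both higher in RT. Ndufa12, by -0.48 (adjusted p = 0.00747), and Ndufb2, by -0.30 (adjusted p = 0.0534), were lower in RT. Ndufaf2 differed by -0.37 with an adjusted p of 0.106.

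**Figure D4:**
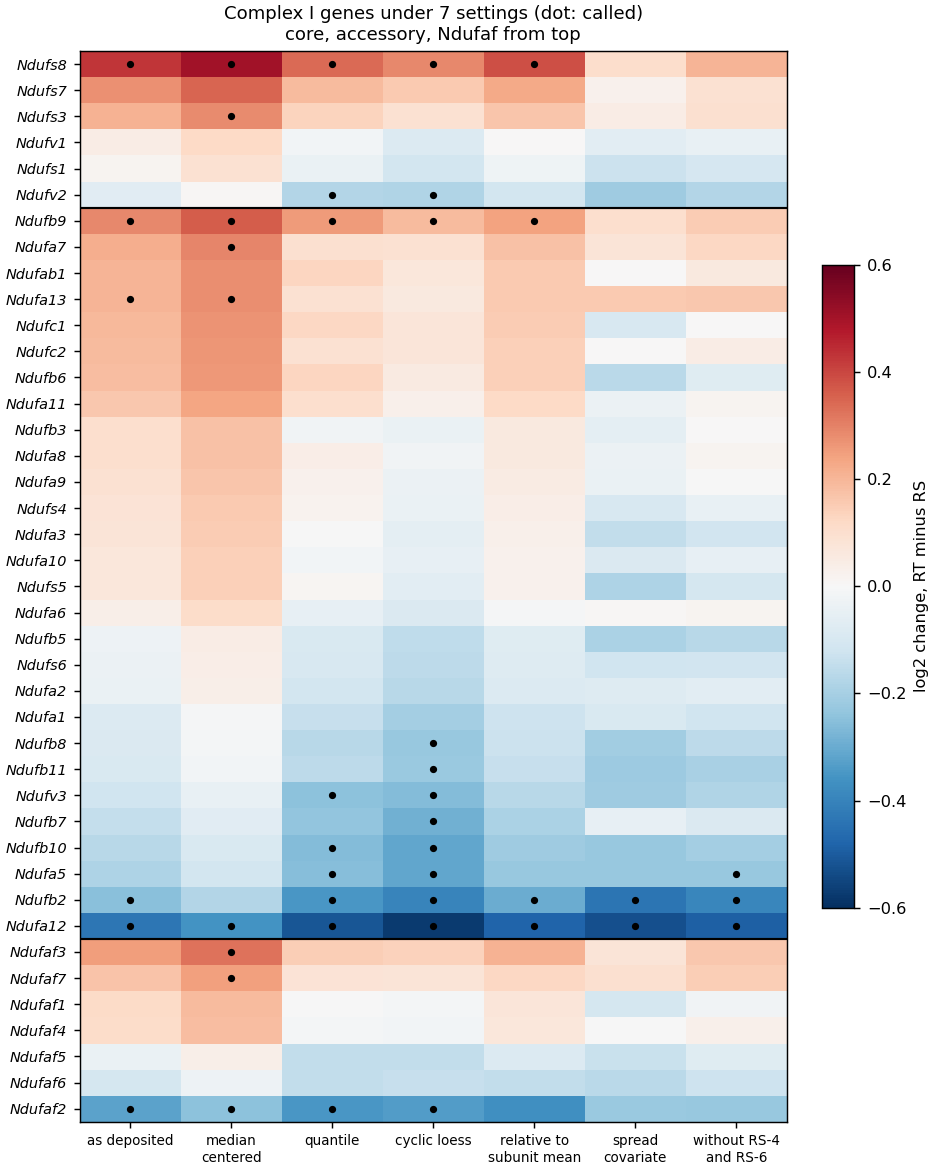
Log2 change (color, RT minus RS) of 34 subunits and 7 Ndufaf factors, in rows by class, under 7 settings in columns, with a dot where the gene was called. Ndufa12 carries a dot in every column, whereas Ndufs8 and Ndufb9 lose theirs with the spread covariate and without RS-4 and RS-6.

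**Figure D5:**
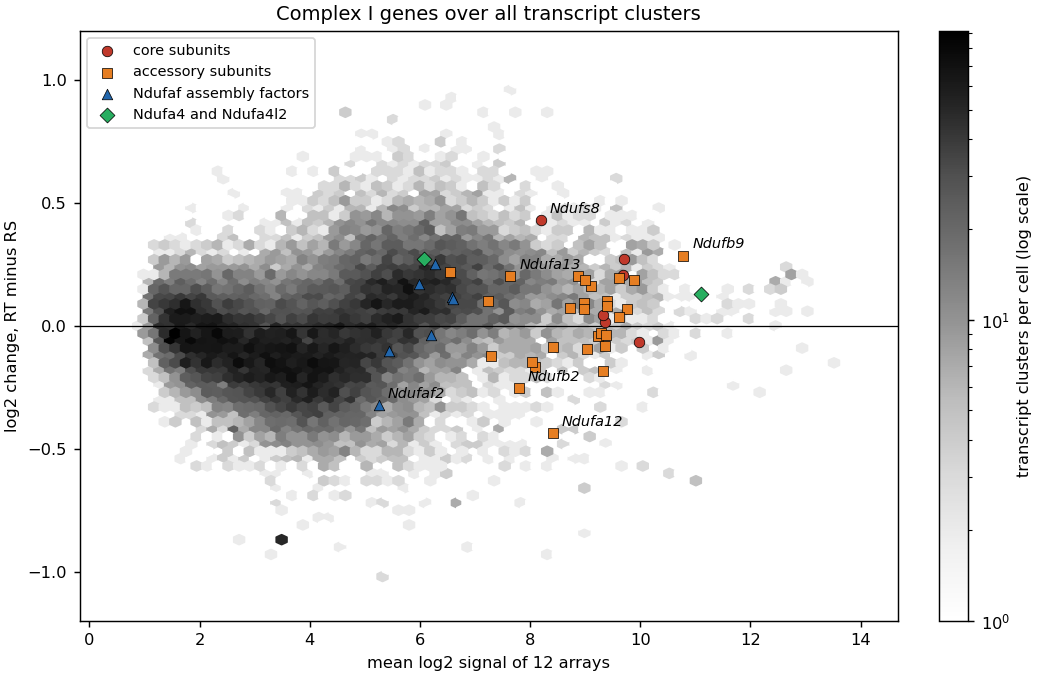
Log2 change (RT minus RS) against the mean log2 signal of 12 arrays, with complex I genes as colored symbols over the density of all 28944 transcript clusters in gray on a log scale. Most complex I genes lie within the gray cloud at their signal, and Ndufa12 lies near its lower edge.

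The mitochondrial DNA part of the complex was represented by ND3, a core subunit of the membrane arm, the only one of the 7 with a single symbol on the array. It was lower in RT. Its brighter row had 11.93, 11.88, 11.93, 11.92, 11.98 and 12.06 in RT-1 to RT-6, against 12.22, 12.08, 12.38, 12.17, 12.31 and 12.52 in RS-1 to RS-6. All RT mice were below all RS mice. The difference was -0.33 (SE 0.08, adjusted p = 0.0167 by limma), and the second row gave -0.45 (SE 0.09, adjusted p = 0.00519), also with no overlap. Without RS-4 and RS-6 the change of the brighter row was -0.30, and after loess -0.40. Of transcript clusters with a mean signal from 12 to under 13, 12.9% were called lower and 1.43% higher. From 11 to under 12, where the second row lies, 20.8% were called lower and 1.39% higher. All RT arrays lay below all RS arrays in 3.1% of the whole table.

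In the other respiratory complexes all calls were in the higher direction on the deposited scale. On that scale 20.4% of transcript clusters with a mean signal of at least 8 were called higher and 9.1% lower. Complex IV reached down to a signal of 6.69 and complex V to 7.58. From 7 to under 8, 28% were called higher and 5.58% lower, and from 6 to under 7, 28.7% and 6.16%. In complex II, which feeds electrons from succinate, 2 of 4 subunits rose, Sdhd by 0.37 (adjusted p = 0.0182) and Sdha by 0.30 (adjusted p = 0.0549). In complex III 0 of 9 were called in either direction. In complex IV 3 of 12 rose, which were Cox6a1 with 0.45 (adjusted p = 0.00436 by limma), Cox6b1 and Cox8a. The related Cox6a2, with 0.29 (adjusted p = 0.121), and Cox8b, with 0.09 (adjusted p = 0.547), were not called. In complex V 3 of 15 rose, led by Atp5d with 0.44 (adjusted p = 0.0367). The median changes were 0.25 in complex II, 0.10 in complex III, 0.11 in complex IV and 0.11 in complex V, beside 0.07 in complex I, and the difference between the complexes was not tested. After loess 1 of 4 rose in complex II and 1 of 9 fell in complex III. In complex IV 1 of 12 then rose and 1 fell, and in complex V 3 of 15 rose and 3 fell. The shares after loess at a signal of at least 8 were 11.6% higher and 15.6% lower. With RS-4 and RS-6 left out, 1 of 4 rose in complex II, 0 of 9 were called in complex III, 1 of 12 rose in complex IV, and 2 of 15 fell in complex V, at shares of 4.55% higher and 8.88% lower. Of 18 genes of mitochondrial mass and transcription, 1 rose, the outer membrane channel Vdac2 by 0.43, and the median was 0.03, against 11.9% called higher and 13% lower over the whole table. When RS-4 and RS-6 were left out, Vdac2 differed by 0.22 and 0 of the 18 were called by limma, and after loess 1 rose and 2 fell, with a median of -0.05. Ppargc1a, a coactivator of mitochondrial biogenesis, differed by -0.51 with an adjusted p of 0.267.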

How the data were processed

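Gastrocnemius RNA of 12 mice was measured on an Affymetrix mouse gene array, 1 array per mouse. The authors deposited log2 signals, normalized by RMA per the labels (the methods also name SST-RMA, so which of them made the table is not settled). No scanner files were used, and array number limits the precision. Array medians were 4.40 to 4.63. Of the rows, 21789 had 1 gene symbol in the platform annotation, 1621 several and 5534 none, and all 48 member rows matched the RefSeq gene table. Members with several symbols, 3 rows, were left out, and Ndufb1, Ndufb4 and Ndufaf8 were not analysed here. There were 0 columns of other samples.

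RT and RS were taken from the labels. The test was limma 3.58.1 in R 4.3.3 (lmFit and eBayes, no covariate, two-sided) over all 28944 rows, called where p was below 0.05 and the p adjusted by Benjamini-Hochberg was below 0.1, as in the study's methods. For single genes a two-sided exact permutation test over 924 splits stands beside it. The script was tested on simulated data. Values of every mouse are given for called members, the largest change of each sign per class and the brightest member of each class, and all core and Ndufaf genes are named. The members and lists were chosen with earlier results of these data known. Alternatives were quantile, loess and median scaling, a filter on dim rows, array weights, array SD as a covariate, a replicate block, scaling to the subunit mean, the one-way analysis of variance of the methods, a stricter threshold and arrays left out. Promoter sequences are from RefSeq on GRCm38.p6, with 38 of 43 genes matched.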

Additional observations from a re-analysis of the deposited data

Results flagged for a closer look

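A sample stood far from the others of its group. For Ndufs7, the core subunit that holds the cluster next to ubiquinone, RS-6 had a log2 signal of 8.88, while the nearest RS mouse had 9.53 and the highest 9.89. The gap was 0.644 of the range of the RS group, past the limit of Dixon's test for 6 values. RT mice had 10.01, 9.88, 9.81, 9.70, 9.67 and 10.01, and the RS mice 9.82, 9.89, 9.70, 9.53, 9.62 and 8.88. This was 1 of 94 groups examined, and chance passes the limit in about 5% of groups. RS-6 was also an array of low spread.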

How the results depend on the processing

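Over 24 alternatives, Ndufa12 was called lower in all and Ndufaf2 in 21, Ndufs8 was called in 17, Ndufb9 in 16, Ndufb2 in 11 and Ndufa13 in 9. The 7209 transcript clusters called became 3420 relative to the subunit mean, 1620 with the array SD as a covariate, 3440 without RS-4 and RS-6 and 4399 at an adjusted p under 0.05, and 4924 to 9379 on leaving out 1 mouse. The 3 subunits called higher became 5 with median centering, 5 without the dimmest rows, 0 with the array SD as a covariate, 0 without RS-4 and RS-6 and 0 at an adjusted p under 0.05, and 0 to 8 on leaving out 1 mouse. The 2 called lower became 6 with quantile and 9 with loess normalization, 4 without the dimmest rows, 4 with array weights, 1 with median centering and 1 at the stricter threshold, and 1 to 3 on leaving out 1 mouse. Background shares by direction are not given for the dim-row filter, array weights, the replicate block or the one-way analysis of variance. Nor are they given for the stricter threshold or single mice left out. Member counts under these settings thus cannot be set against the background. Ndufaf factors called higher, 0 by limma although 2 had an unadjusted p under 0.05, were 2 with median centering, 1 by the one-way analysis of variance of the methods and 0 to 2 on leaving out 1 mouse. The 1 called lower became 0 relative to the subunit mean, 0 with the array SD as a covariate and 0 without RS-4 and RS-6, and was 1 on leaving out any 1 mouse. The median change of accessory subunits, 0.07, was -0.0613 with loess, -0.0933 with the array SD as a covariate and -0.0671 without RS-4 and RS-6, and -0.01 to 0.11 on leaving out 1 mouse. That of Ndufaf factors, 0.11, was -0.0115 with quantile and -0.018 with loess normalization, -0.11 with the array SD and -0.0208 without RS-4 and RS-6, and 0.05 to 0.14 on leaving out 1 mouse. That of core subunits, 0.13, was 0.0047 with loess, 0.059 with quantile normalization, 0.2017 with median centering, -0.0178 with the array SD and 0.0225 without RS-4 and RS-6, and 0.07 to 0.16 on leaving out 1 mouse. Of the 43 genes, the sign of the change turned in 15 with the array SD as a covariate, 12 with loess, 9 without RS-4 and RS-6, 8 with quantile normalization, 5 with median centering, 2 relative to the subunit mean, 2 with array weights and at most 3 on leaving out 1 mouse, none of them called in either setting. Those that turned by at least the spread within groups were, with the array SD as a covariate, Ndufa10 at -0.0851, Ndufa11 at -0.0353, Ndufa4 at -0.0318, Ndufaf1 at -0.11, Ndufb6 at -0.16, Ndufc1 at -0.0949 and Ndufs5 at -0.19, with median centering Ndufa2 at 0.035, with quantile normalization Ndufa6 at -0.0501 and Ndufaf4 at -0.0115, and with loess Ndufa6 at -0.0851 and Ndufaf4 at -0.018. The cause of these changes was not tested. The replicate numbers of the labels do not pair the mice, since same-numbered arrays deviated together by correlations of -0.24 to 0.11 and 1 of 12 arrays correlated best with its own number, and with the replicate number as a block 6047 transcript clusters, 2 subunits higher and 1 lower were called. Signals near the array median, such as that of Ndufaf2, lie closer to background than those of the subunits.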
